A study of Mus musculus with 12 samples.

Results

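The mouse genes of the proteasome, the protease complex that degrades ubiquitin-tagged proteins, were followed through a protocol that turns MTΔECad breast cancer cells into fat cells. Members were the protein-coding genes whose symbol is Psma, Psmb, Psmc, Psmd or Psme followed by a digit, without Psmb8 and Psmb9, with at least 10 counts in at least 2 libraries. Of 44 such symbols 43 were in the count table and 42 were kept, of 17090 genes in all. Psma8 was not analysed here, and Psmb11 did not reach the count minimum. Among the 42, 40 encode subunits, assembly chaperones or activators of the proteasome. The other 2, Psmc3ip and Psme3ip1, carry the name pattern only and are described last.

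MTΔECad is labelled as a mesenchymal breast cancer cell, and RNA was taken at 0 h, 6 h and days 3, 5, 7 and 10, with 2 libraries per time point from 2 independent experiments. Cells were seeded at 20000 per cm2 and by the protocol received 200 ng/ml human BMP2, a bone morphogenetic protein, for 3 days. Rosiglitazone, a PPARγ agonist, was then added at 2 µM, first beside BMP2 for 4 days and afterwards without it for 3 days. The 0 h, 6 h and day 3 groups thus precede rosiglitazone, days 5 and 7 fall in the combined phase, and day 10 closes the phase without BMP2. No genotype, passage or clone is stated beyond the name of the line, which all groups share, and untreated cells kept for the same times are not among these libraries. Time in culture and treatment therefore cannot be told apart.

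Library totals ran from 12820802 to 17570366 counts, and the lowest count of a member in any library was 162 (Psmb10). The labelled identity was checked against markers. E-cadherin (Cdh1) was at most 1.09 CPM in every library. The summed level of 5 mesenchymal markers was 9175 to 9543 CPM at 0 h, 10448 to 15151 at day 3 and 2920.1 to 3257 at day 10. Against 0 h, Fn1, Zeb1 and Zeb2 were higher and Vim and Cdh2 lower at day 3, and at day 10 Zeb1 and Zeb2 were higher and the other 3 lower. The 6 adipocyte markers rose in sum from 25.7 to 30.9 CPM at 0 h to 29166 to 30592 at day 10. The 4 proliferation markers summed to 2818 to 2855 CPM at 0 h, 39.5 to 60.8 at day 3 and 26.3 to 29.8 at day 10. Leukocyte markers, 4 of 6 of them in the table, reached at most 8.65 CPM in sum, and endothelial markers at most 3.98 CPM. These changes run alongside the results below, and their part in them was not tested. In such bulk libraries, fewer cells of a type and less RNA per cell cannot be told apart.

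The proteasome is built from a barrel-shaped 20S core and caps that open it. Rings of alpha subunits gate the barrel, and inner rings of beta subunits hold the catalytic sites. The 19S cap has a base, in which a ring of ATPases unfolds substrates, and a lid, which removes ubiquitin. Other caps, the PA28 and PA200 activators, open the core without ATP. The transcription factor Nfe2l1 raises subunit genes when proteasome capacity falls short and is known to sustain proteasome activity in brown fat, while interferon-γ induces PA28 and the catalytic subunits of the immunoproteasome.

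Promoter sequences were compared because most members moved together at day 3 and then parted. RefSeq promoters (GRCm38.p6, 250 bases before to 50 bases after an annotated start) were matched for 36 of 42 members. That start is not always the first base of the RefSeq gene. Psmd2, on the plus strand, begins at 20651122, before its window, and the windows of Psmb6 and Psma3 are also offset. The 4 sequences below belong to genes with contrasting courses, and run 5′ to 3′ on the gene's own strand. Capitals mark a match to a searched motif on either strand.
Psma1, chr7:114276067-114276366, minus strand: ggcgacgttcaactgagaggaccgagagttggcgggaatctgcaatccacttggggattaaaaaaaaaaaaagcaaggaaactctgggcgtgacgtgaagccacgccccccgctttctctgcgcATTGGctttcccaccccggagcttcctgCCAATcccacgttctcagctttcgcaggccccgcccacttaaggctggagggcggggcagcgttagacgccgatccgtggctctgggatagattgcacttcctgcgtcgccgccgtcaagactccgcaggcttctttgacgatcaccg
Psmb6, chr11:70525107-70525406, plus strand: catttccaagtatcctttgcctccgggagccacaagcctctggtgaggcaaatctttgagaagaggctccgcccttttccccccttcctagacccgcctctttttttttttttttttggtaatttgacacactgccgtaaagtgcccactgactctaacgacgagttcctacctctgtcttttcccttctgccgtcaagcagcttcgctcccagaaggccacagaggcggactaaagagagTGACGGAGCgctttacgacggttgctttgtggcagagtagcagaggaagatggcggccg
Psmd2, chr16:20651402-20651701, plus strand: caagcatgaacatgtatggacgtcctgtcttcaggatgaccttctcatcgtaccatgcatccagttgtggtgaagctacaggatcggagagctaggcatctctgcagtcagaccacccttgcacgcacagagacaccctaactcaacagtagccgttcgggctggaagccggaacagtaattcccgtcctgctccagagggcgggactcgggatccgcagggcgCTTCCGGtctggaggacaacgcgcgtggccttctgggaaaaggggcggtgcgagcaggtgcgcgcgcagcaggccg
Psme1, chr14:55578244-55578543, plus strand: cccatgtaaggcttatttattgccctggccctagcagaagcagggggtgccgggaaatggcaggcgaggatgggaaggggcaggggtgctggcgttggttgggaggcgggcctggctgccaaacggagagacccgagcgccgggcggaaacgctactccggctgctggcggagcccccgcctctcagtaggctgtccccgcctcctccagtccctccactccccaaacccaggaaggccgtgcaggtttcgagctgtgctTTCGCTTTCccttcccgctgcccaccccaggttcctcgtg
In Psma1 the capitals are 2 CCAAT boxes, the motif of NF-Y, 1 of them read on the opposite strand. In Psmb6 they are TGACNNNGC, the core of the antioxidant response element that Nfe2l1 and Nfe2l2 can bind. In Psmd2 they are the ETS motif CCGGAAG on the opposite strand. In Psme1 they are GAAANNGAA, most of the interferon-stimulated response element, on the opposite strand and just past the start. Both strands were searched, matches of different motifs may overlap, and a gene counts once whatever its number of promoters. The ETS motif lay in 14 of 36 members (38.9%), against 9.93% of all 27025 genes with a promoter and 8.86% of all 32851 promoters of this length. For every motif this background was not limited to genes expressed in these libraries, whereas all members were. CCAAT was found in 14 of 36 members (38.9%, against 41.1% of genes). The 14 with ETS and the 14 with CCAAT each include Psmc3ip and Psme3ip1, which match by name only. TGACNNNGC was found in 6 of 36 (16.7%, against 14.0%), namely Psmb5, Psmb6, Psmc6, Psmd9, Psmd12 and Psme4. GAAANNGAA was found in 6 of 36 (16.7%, against 9.76%). GCATGCGC, most of the palindrome of the nuclear respiratory factor, was found in Psma2 and Psmc5 (5.56%, against 3.05%). A match describes letters only and not a bound site.

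Across the whole course, the members shared a dip at day 3. All 42 differed between at least some time points, where 94.7% of the 12740 genes tested did so (edgeR quasi-likelihood test, Benjamini-Hochberg adjusted over all tested genes, called below 0.05). At 6 h no member was called in either direction, against a background of 0.534% of genes called higher and 0.212% called lower. DESeq2 called none either, and no member had an unadjusted p below 0.05 at 6 h with edgeR. At day 3 against 0 h, 38 of 42 members fell and 1 rose, where 35% of all genes were called lower and 33.1% higher. The members' median log2 fold change was -0.70, against 0 for all genes tested. The 1 rise was that of Psme3ip1, and no member was called higher without either 0 h library or without day 3 replicate 1. In the means of 29 members day 3 was the lowest of the 6 times, a count that was not made for all genes. The plot of called shares by comparison sets these counts beside those of all genes.

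**Figure D1:**
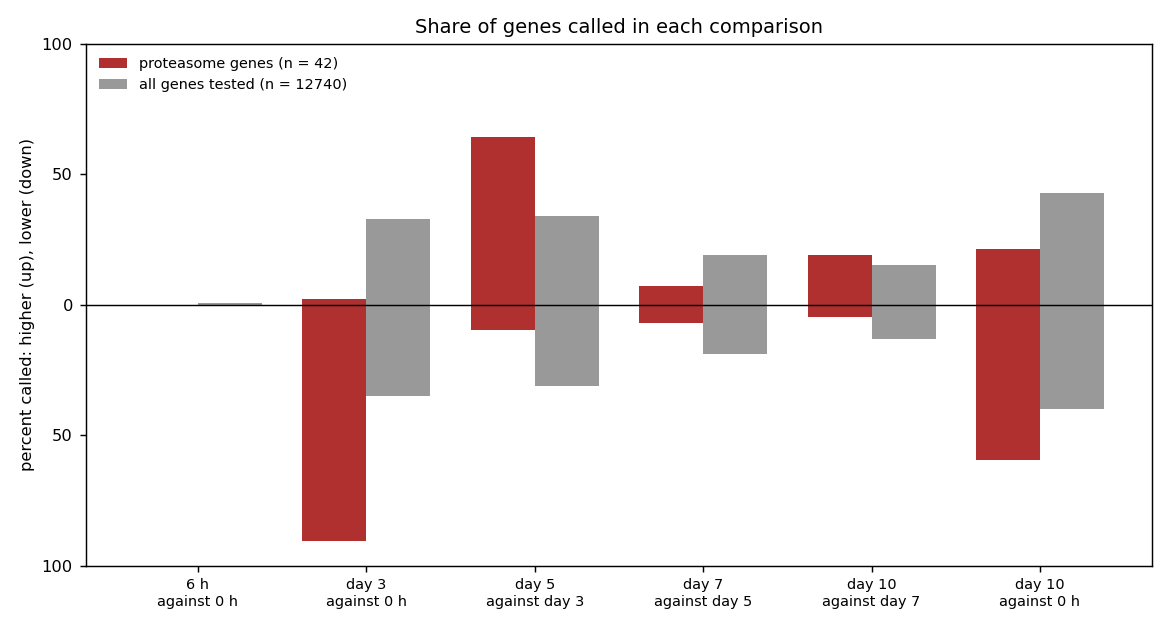
Percent of the 42 proteasome genes (red) and of all 12740 genes tested (grey) called higher (upward bars) or lower (downward bars) at an adjusted p below 0.05 in each comparison. The red downward bar stands at 38 of 42 members for day 3 against 0 h, and the red upward bar at 27 of 42 for day 5 against day 3.

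From day 3 to day 5, when rosiglitazone was added, 27 members rose and 4 fell, against 34% and 31% of all genes. Of the 38 members that fell to day 3, 25 rose again and 13 did not. These 13 were Psma7, Psmb10, Psmc1, Psmc2, Psmc3, Psmc4, Psmc5, Psmd2, Psmd5, Psmd9, Psmd10, Psmd12 and Psme3, and all 13 were still lower at day 10 than at 0 h. The same split was not counted over all genes that fell to day 3, so it has no background here. At day 10 against 0 h, 25 members were lower and 9 higher, where 39.9% and 42.8% of all genes were so called, and the members' median was -0.33 against 0.06 for all genes. Scaled by library totals only, which lowers the median of all genes in this comparison by 0.35, the split was 33 lower and 5 higher. With that scaling day 5 against day 3 had 23 higher and 8 lower. The 0 h, day 3 and day 10 libraries serve more than one of these comparisons. The course of each member by role shows the shared dip and the spread after it.

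**Figure D2:**
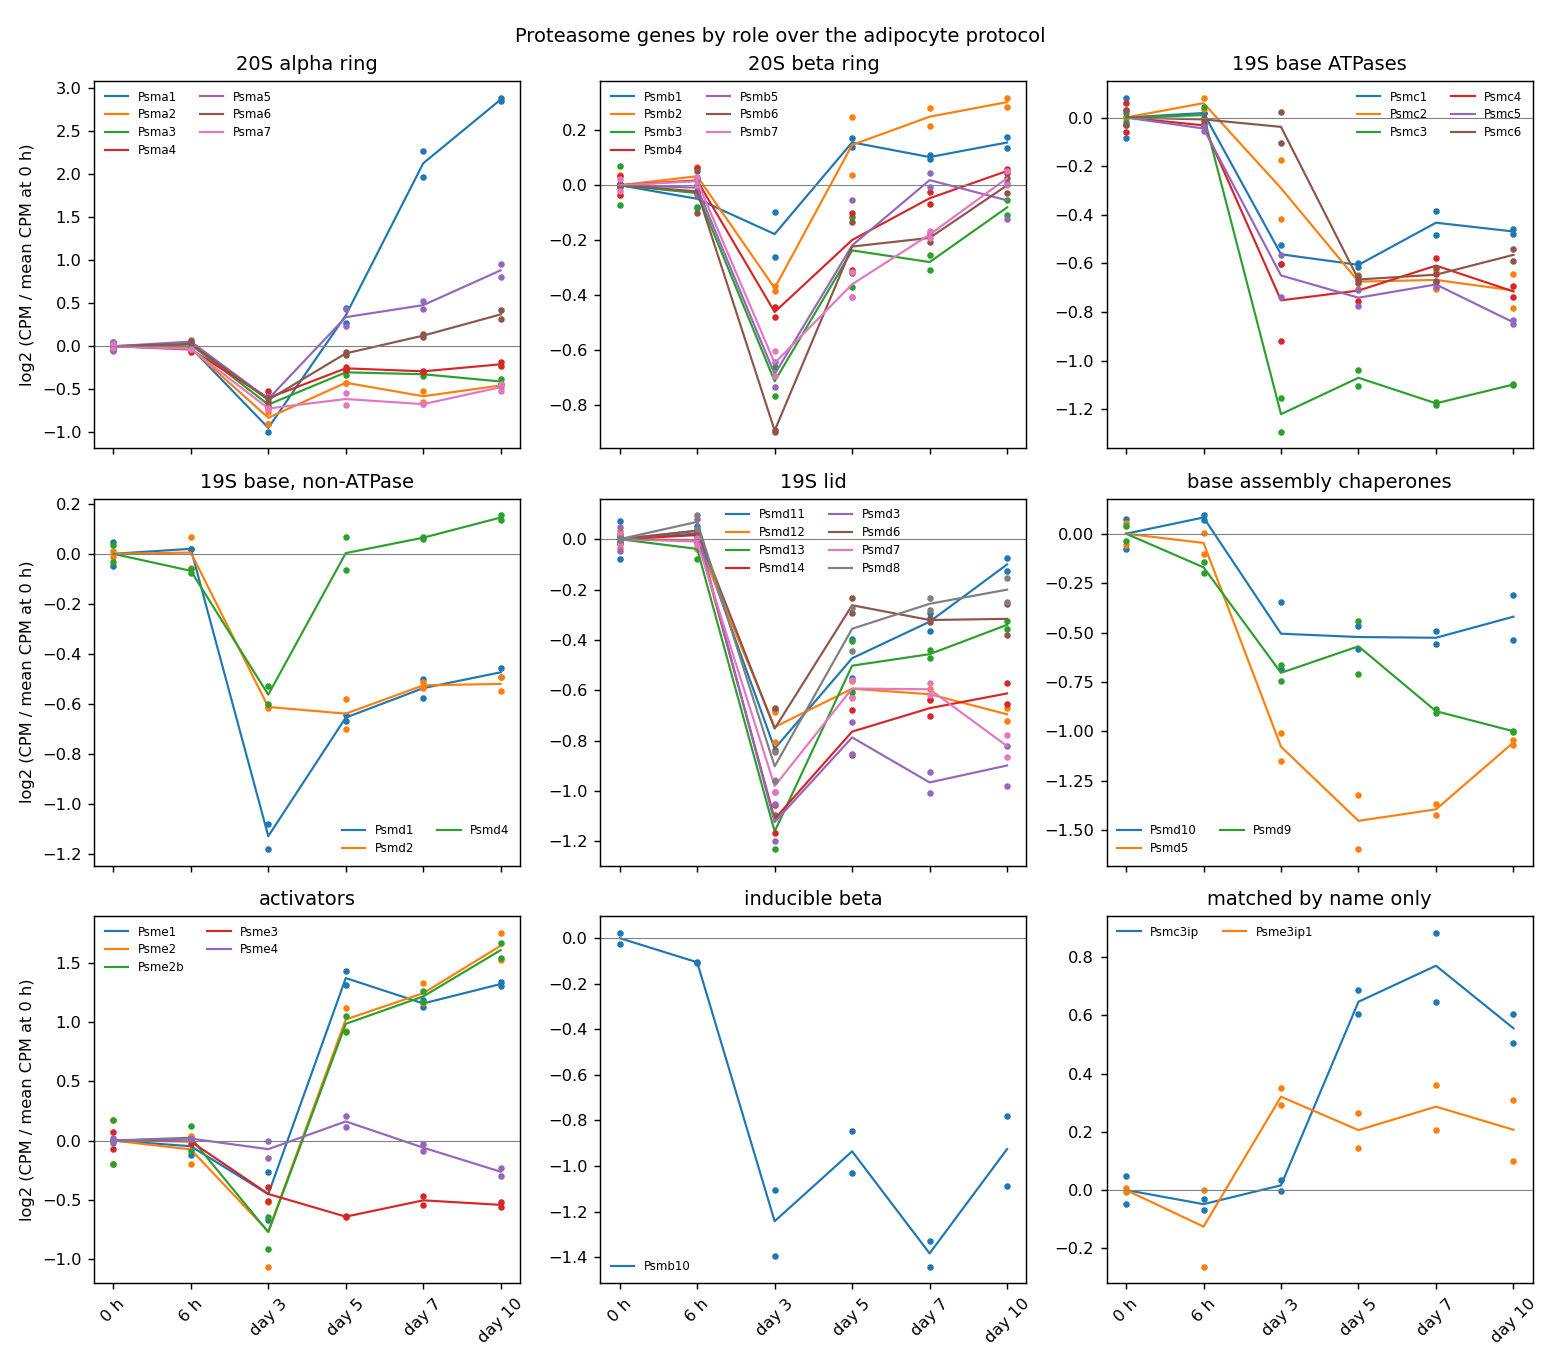
Change from the 0 h mean on a log2 scale (vertical axis, which differs between panels) at the 6 time points, for the members of each role. Points are single libraries and lines join the means of 2. Most lines dip at day 3, Psma1 climbs to day 10, and the base ATPases lie below 0 from day 5 on.

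The alpha ring gates entry to the core, and its 7 genes fell together to day 3 (7 of 7, median log2 fold change -0.68). From day 3 to day 5, 6 of 7 rose, all but Psma7, for which the change was 0.11 (SE 0.068, edgeR adjusted p = 0.168). At day 10 against 0 h, Psma1, Psma5 and Psma6 were higher and Psma2, Psma3, Psma4 and Psma7 lower. Scaled by library totals only, Psma6 was no longer called (0.02, adjusted p = 0.827).

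Psma1, the alpha 6 subunit of the core, left the other alpha ring genes after day 3. From day 3 to day 5 it rose less than Psme1, Psme2 and Psme2b, and after day 5 more than any other member. Psma1 was at 172 and 173 CPM at 0 h, 169.6 and 171 at 6 h, 91.8 and 86.6 at day 3, 234 and 208 at day 5, 830.1 and 676 at day 7 and 1241 and 1277 at day 10. The libraries of day 3 lay lowest and those of day 7 and day 10 above every earlier library, with no overlap between neighbouring times from day 3 on. Psma1 fell by 0.95 on the log2 scale to day 3 (SE 0.092, edgeR adjusted p = 1.05e-07). Psma1 rose by 1.31 on the log2 scale from day 3 to day 5 (SE 0.091, edgeR adjusted p = 2.02e-09). Psma1 rose by 1.77 on the log2 scale from day 5 to day 7 (SE 0.089, edgeR adjusted p = 6.54e-10). Psma1 rose by 0.74 on the log2 scale from day 7 to day 10 (SE 0.088, edgeR adjusted p = 1.06e-05). Over the whole course it rose by 2.87 on the log2 scale (SE 0.089, edgeR adjusted p = 2.8e-14), and scaled by library totals only by 2.51 (adjusted p = 3.88e-14).

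By day 10 Psma1 had the highest level per kilobase of all members, 1003 CPM per kilobase. Psma1 took 2.69% and 2.74% of the members' counts at 0 h and 19.2% and 19.6% at day 10. Per kilobase of gene length, its CPM was 1.11 and 1.09 times the median of the other 6 alpha genes at 0 h. At day 10 the same ratio was 9.95 and 10.4. All members together made up 0.679% and 0.670% of each library's counts at 0 h, 0.466% and 0.457% at day 3, and 0.530% and 0.550% at day 10. Without Psma1 the shares were 0.661% and 0.652% at 0 h, 0.455% and 0.447% at day 3 and 0.428% and 0.443% at day 10. All these shares are of unscaled counts, whereas the CPM values use TMM scaling factors. Those factors were 1.13 and 1.15 at day 3 and 0.819 and 0.843 at day 10.

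Psma1 lies at chr7:114264550-114276116 on the minus strand (RefSeq, GRCm38.p6), and its counts are those of the whole gene. No other RefSeq gene overlaps it. The nearest, Copb1, which encodes a coat protein of Golgi vesicles, ends 9869 bases away, and 4933406I18Rik lies 39362 bases away on the other side. Copb1 had 2629 to 5574 counts over the 12 libraries and the next counted gene Rras2 had 2138 to 4904, while Psma1 went from 1317 to 16679. Pde3b and Calca, also nearby, had at most 6 counts in any library. In a search of GENCODE transcripts, Psma1 had no other gene at 90% identity or more over at least 500 bases. Its promoter, printed above, holds 2 CCAAT boxes and none of the other motifs searched.

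**Figure D3:**
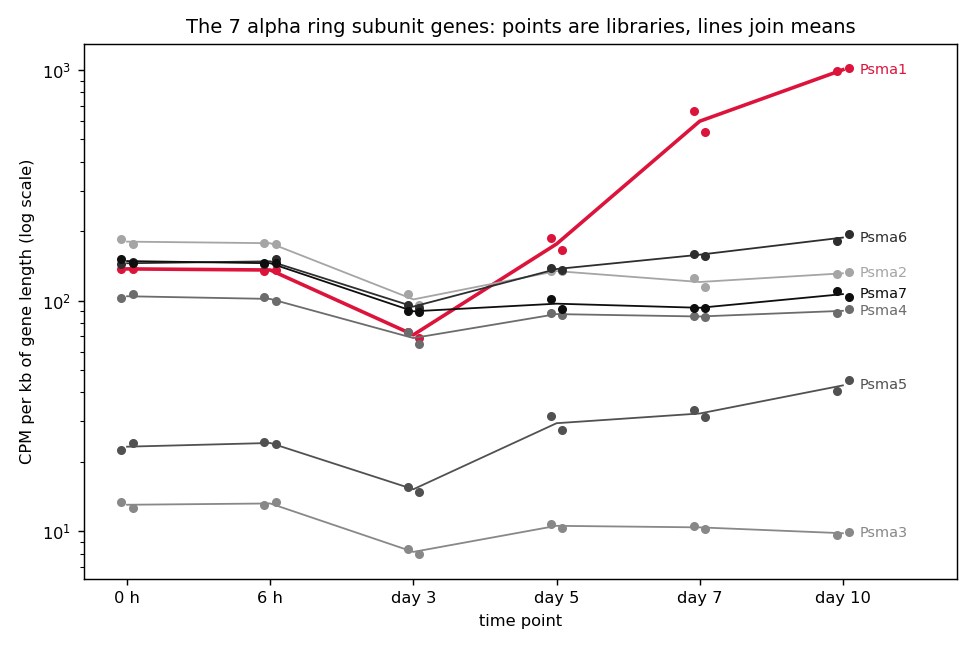
CPM per kilobase of gene length (log axis) of the 7 alpha ring genes at the 6 time points, with points for single libraries and lines joining means. Psma1 (red) sits among the other alpha genes until day 3 and reaches 989 and 1018 at day 10.

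Psma5 and Psma6 shared the later rise on a smaller scale. The CPM of Psma5 was 27.3 and 29.3 at 0 h, 29.7 and 29.1 at 6 h, 18.9 and 18.1 at day 3, 38.3 and 33.3 at day 5, 40.8 and 38.1 at day 7 and 49.4 and 55.1 at day 10. Both day 10 libraries were above all earlier ones. By day 5, Psma5 had risen by 0.95 on the log2 scale from day 3 (SE 0.1, edgeR adjusted p = 4.48e-07). By day 10, Psma5 had risen by 0.41 on the log2 scale from day 7 (SE 0.097, edgeR adjusted p = 0.00463). That last step was lost without day 7 replicate 2 or day 10 replicate 2 (adjusted p = 0.0598 and 0.0733). Psma5 was higher at day 10 than at 0 h, with a log2 fold change of 0.88 (SE 0.099, edgeR adjusted p = 3.02e-07). For Psma6 the libraries gave 158 and 162 CPM at 0 h, 159 and 168 at 6 h, 105 and 103 at day 3, 153 and 149 at day 5, 176 and 173 at day 7 and 200.1 and 214 at day 10. At day 10, Psma6 had a log2 fold change of 0.37 against 0 h (SE 0.065, edgeR adjusted p = 5.9e-05). Its step from day 5 to day 7 was 0.21 (SE 0.065, adjusted p = 0.0199), and this call was lost without either day 7 library or without day 5 replicate 2 (adjusted p from 0.0542 to 0.104). Psma5 has a pseudogene copy 98.6% identical over 952 bases, so its reads may be shared with it.

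Psma2, Psma3 and Psma4 rose from day 3 to day 5 but were lower at day 10 than at 0 h. Psma3 stood at 32.2 and 30.2 CPM at 0 h, 31.1 and 32.2 at 6 h, 20.01 and 19.01 at day 3, 25.8 and 24.8 at day 5, 25.3 and 24.5 at day 7 and 23.1 and 23.9 at day 10. Every library after day 3 lay above day 3 and below 0 h. By day 3, Psma3 had fallen by 0.68 on the log2 scale (SE 0.095, edgeR adjusted p = 7.76e-06). Psma3 changed by 0.37 on the log2 scale from day 3 to day 5 (SE 0.096, edgeR adjusted p = 0.00251). Psma3 was lower at day 10 than at 0 h, with a log2 fold change of -0.41 (SE 0.095, edgeR adjusted p = 0.000826). Psma3 had the lowest level per kilobase of the alpha genes at every time point (13.0 CPM per kilobase at 0 h), and it has 3 pseudogene copies in GENCODE, 1 of them identical over 665 bases. Psma2 and Psma4 also have such copies. At day 10 against 0 h the log2 fold change was -0.46 for Psma2, -0.21 for Psma4 and -0.48 for Psma7. The call for Psma4 was lost without 0 h replicate 2 (adjusted p = 0.0807) or day 10 replicate 1 (adjusted p = 0.0749).

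The beta ring holds the proteolytic sites, and it was the role whose genes returned closest to their 0 h level. All 7 fell to day 3 (median -0.65), and all 7 rose from day 3 to day 5 (median 0.47), of which the rise of Psmb4 was lost without day 5 replicate 1 (adjusted p = 0.149) and with library totals only (adjusted p = 0.154). At day 10 against 0 h, Psmb1 (0.16) and Psmb2 (0.30) were higher, 5 were not called, and the median was 0.03. This placement depended on scaling: with library totals only, 6 of 7 were lower at day 10 (median -0.33), Psmb1 among them (-0.20) and Psmb2 at -0.05 (adjusted p = 0.518). The call for Psmb1 at day 10 was also lost without either 0 h library (adjusted p = 0.127 and 0.141) or either day 10 library (0.0799 and 0.171). Its fall to day 3 was lost without either 0 h library or day 3 replicate 2 (adjusted p from 0.0869 to 0.258).

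Psmb6, the beta 1 subunit with caspase-like activity, had the largest fall of the beta ring at day 3. Psmb6 measured 156 and 157 CPM at 0 h, 162 and 146 at 6 h, 84.5 and 84.1 at day 3, 143 and 125 at day 5, 138 and 136 at day 7 and 159 and 154 at day 10. The day 3 libraries lay far below all others, and those of day 10 overlapped 0 h. Psmb6 changed by -0.89 on the log2 scale to day 3 (SE 0.076, edgeR adjusted p = 2.17e-08). Psmb6 rose by 0.67 on the log2 scale from day 3 to day 5 (SE 0.076, edgeR adjusted p = 8.25e-07). Psmb5, the beta 5 subunit with chymotrypsin-like activity, is the main target of proteasome inhibitor drugs. Levels of Psmb5 were 54.6 and 54.3 CPM at 0 h, 55.1 and 53.1 at 6 h, 34.9 and 32.8 at day 3, 52.5 and 41.1 at day 5, 54.2 and 56.1 at day 7 and 54.8 and 50.01 at day 10. The day 5 libraries were the most unequal pair. Psmb5 fell by 0.69 on the log2 scale to day 3 (SE 0.1, edgeR adjusted p = 1.73e-05). By day 5, Psmb5 had risen by 0.47 on the log2 scale from day 3 (SE 0.1, edgeR adjusted p = 0.000828). Psmb5 did not pass the test at day 10 against 0 h, where its log2 change was -0.06 (SE 0.1, edgeR adjusted p = 0.615). Psmb7 is the beta 2 subunit with trypsin-like activity. The Psmb7 values were 159 and 154 CPM at 0 h, 156 and 159.9 at 6 h, 103 and 96.9 at day 3, 126 and 118 at day 5, 139.5 and 137 at day 7 and 162 and 157 at day 10. By day 3, Psmb7 had fallen by 0.65 on the log2 scale (SE 0.066, edgeR adjusted p = 2.11e-07). Psmb7 changed by 0.29 on the log2 scale from day 3 to day 5 (SE 0.067, edgeR adjusted p = 0.00123). That step was 0.15 with library totals only (adjusted p = 0.0541). Its day 5 to day 7 rise of 0.18 (adjusted p = 0.0405) was -0.02 when scaled by library totals only (adjusted p = 0.846). Per kilobase at 0 h, Psmb4, a structural subunit, was highest of the ring at 233 CPM and Psmb5 lowest at 62.5. Psmb1, Psmb3, Psmb5 and Psmb6 have pseudogene copies at 90% identity or more over at least 500 bases, which could share their reads.

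Psmb10, the interferon-inducible beta 2i subunit that replaces Psmb7 in the immunoproteasome, went down and stayed down. In CPM, Psmb10 was at 27.7 and 28.6 at 0 h, 26.2 and 26.1 at 6 h, 13.1 and 10.7 at day 3, 15.7 and 13.8 at day 5, 11.2 and 10.4 at day 7 and 16.4 and 13.2 at day 10. No library from day 3 on reached the lowest 0 h or 6 h library. Psmb10 changed by -1.24 on the log2 scale to day 3 (SE 0.13, edgeR adjusted p = 2.38e-07). Psmb10 did not pass the test from day 3 to day 5, where its log2 change was 0.30 (SE 0.13, edgeR adjusted p = 0.0574). Psmb10 fell by 0.45 on the log2 scale from day 5 to day 7 (SE 0.14, edgeR adjusted p = 0.0163). Without day 5 replicate 1 or day 7 replicate 2 that call was lost (adjusted p = 0.1248 and 0.105). Psmb10 changed by 0.45 on the log2 scale from day 7 to day 10 (SE 0.14, edgeR adjusted p = 0.0237). This step back up was lost without either day 7 library or day 10 replicate 1 (adjusted p from 0.0527 to 0.245), with library totals only (0.0727) and with DESeq2 (0.0501). At day 10, Psmb10 had a log2 fold change of -0.93 against 0 h (SE 0.13, edgeR adjusted p = 4.11e-06). Per kilobase, Psmb10 stood at 0.133 and 0.142 of Psmb7 at 0 h and 0.0771 and 0.0645 at day 10.

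Of the 6 base ATPases, which unfold substrates and thread them into the core, 5 fell to day 3, all but Psmc6. From day 3 to day 5, none rose and 2 fell, and by day 10 all 6 were lower than at 0 h (median -0.71). Scaled by library totals only, all 6 were again lower at day 10, with a median of -1.07.

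Psmc3, a base ATPase also known as Rpt5, had the largest fall of the group. Psmc3 was at 317 and 309 CPM at 0 h, 322 and 308 at 6 h, 141 and 128 at day 3, 153 and 146 at day 5, 139 and 138 at day 7 and 146 and 146 at day 10. All libraries from day 3 on lay at 153 CPM or less, and all earlier ones at 308 or more. Psmc3 fell by 1.22 on the log2 scale to day 3 (SE 0.068, edgeR adjusted p = 1.01e-10). Psmc3 ended lower than it began, at a log2 fold change of -1.10 (SE 0.068, edgeR adjusted p = 1.27e-10). Psmc6 (Rpt4) took a different course. The CPM of Psmc6 was 414 and 431 at 0 h, 419 and 421 at 6 h, 429 and 393 at day 3, 269 and 264 at day 5, 275 and 265 at day 7 and 281 and 290.5 at day 10. Its day 3 libraries overlapped those of 0 h, and its drop came between day 3 and day 5. Psmc6 did not pass the test at day 3 against 0 h, where its log2 change was -0.04 (SE 0.068, edgeR adjusted p = 0.631). Psmc6 fell by 0.63 on the log2 scale from day 3 to day 5 (SE 0.068, edgeR adjusted p = 4.7e-07). Psmc6 was lower at day 10 than at 0 h, with a log2 fold change of -0.56 (SE 0.068, edgeR adjusted p = 7.68e-07). Per kilobase, Psmc6 was the highest of the ATPases at every time, at 270.1 CPM at 0 h and 183 at day 10.

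Psmc2 (Rpt1) fell in 2 steps. For Psmc2 the libraries gave 145 and 145 CPM at 0 h, 148 and 153 at 6 h, 108 and 128 at day 3, 88.9 and 92.5 at day 5, 93.5 and 88.8 at day 7 and 92.7 and 84.2 at day 10. The 2 day 3 libraries differed from each other by more than the pairs of any other time. By day 3, Psmc2 had fallen by 0.29 on the log2 scale (SE 0.079, edgeR adjusted p = 0.00388). That call was lost without day 3 replicate 1 (-0.17, adjusted p = 0.0709) and with library totals only (adjusted p = 0.0512). By day 5, Psmc2 had fallen by 0.38 on the log2 scale from day 3 (SE 0.08, edgeR adjusted p = 0.000514). Psmc1 stood at 161 and 144 CPM at 0 h, 154 and 154 at 6 h, 100.4 and 106 at day 3, 101 and 99.5 at day 5, 117 and 109 at day 7 and 111 and 109 at day 10. Psmc1 changed by -0.56 on the log2 scale to day 3 (SE 0.071, edgeR adjusted p = 2.4e-06). At day 10, Psmc1 had a log2 fold change of -0.47 against 0 h (SE 0.071, edgeR adjusted p = 1.18e-05). Psmc1 (Rpt2) has pseudogene copies of 95.6% and 97.1% identity. Psmc4 measured 116 and 107 CPM at 0 h, 109 and 109 at 6 h, 58.9 and 73.4 at day 3, 70.05 and 66.05 at day 5, 74.7 and 71.4 at day 7 and 66.7 and 69.004 at day 10. Psmc4 fell by 0.75 on the log2 scale to day 3 (SE 0.089, edgeR adjusted p = 1.26e-06). Psmc4 ended lower than it began, at a log2 fold change of -0.71 (SE 0.091, edgeR adjusted p = 1.41e-06). Psmc4 (Rpt3) was lowest of the ATPases per kilobase, at 77.6 CPM at 0 h. Psmc5 (Rpt6) was lower by 0.65 at day 3 and by 0.84 at day 10 on the log2 scale.

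The non-ATPase part of the base holds the scaffolds Psmd1 (Rpn2) and Psmd2 (Rpn1) and the ubiquitin receptor Psmd4 (Rpn10). All 3 fell to day 3, and they differed after it. Levels of Psmd1 were 411 and 384 CPM at 0 h, 403 and 403 at 6 h, 188 and 175 at day 3, 254 and 250.1 at day 5, 281 and 267 at day 7 and 289 and 283 at day 10. Day 3 lay far below every other time, and all later libraries lay below 0 h and 6 h. By day 3, Psmd1 had fallen by 1.13 on the log2 scale (SE 0.068, edgeR adjusted p = 2.99e-10). Psmd1 rose by 0.47 on the log2 scale from day 3 to day 5 (SE 0.068, edgeR adjusted p = 1.21e-05). Psmd1 was lower at day 10 than at 0 h, with a log2 fold change of -0.47 (SE 0.068, edgeR adjusted p = 5.93e-06). The Psmd4 values were 172 and 164 CPM at 0 h, 161 and 159.7 at 6 h, 117 and 111 at day 3, 176 and 161 at day 5, 175 and 176 at day 7 and 187 and 185 at day 10. The receptor's day 5 libraries overlapped those of 0 h. Psmd4 changed by -0.56 on the log2 scale to day 3 (SE 0.068, edgeR adjusted p = 1.43e-06). By day 5, Psmd4 had risen by 0.57 on the log2 scale from day 3 (SE 0.068, edgeR adjusted p = 1.49e-06). Psmd4 did not pass the test at day 10 against 0 h, where its log2 change was 0.15 (SE 0.067, edgeR adjusted p = 0.0558). Scaled by library totals only, Psmd4 was lower at day 10 (-0.21, adjusted p = 0.00862). Psmd2, whose promoter with the ETS motif is printed above, fell by 0.61 to day 3 and was still lower by 0.52 at day 10 on the log2 scale (edgeR adjusted p = 2.53e-06). A transcribed pseudogene is 96.4% identical to Psmd2 over 2726 bases.

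The lid, which removes ubiquitin chains before a substrate enters, had the lowest median of the roles with more than 1 gene at day 3. All 8 genes fell, with a median of -0.94. From day 3 to day 5, 7 of 8 rose (median 0.37), and at day 10 against 0 h 7 of 8 were still lower (median -0.48). Scaled by library totals only, all 8 were lower at day 10.

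Psmd14 (Rpn11) is the deubiquitinase of the lid. In CPM, Psmd14 was at 207 and 203 at 0 h, 208 and 207 at 6 h, 91.4 and 98.6 at day 3, 128 and 113 at day 5, 132 and 126 at day 7 and 130.3 and 138 at day 10. The later libraries sat between the day 3 and the 0 h levels without overlap. Psmd14 fell by 1.11 on the log2 scale to day 3 (SE 0.074, edgeR adjusted p = 9.71e-10). Psmd14 changed by 0.35 on the log2 scale from day 3 to day 5 (SE 0.074, edgeR adjusted p = 0.000626). At day 10, Psmd14 had a log2 fold change of -0.61 against 0 h (SE 0.073, edgeR adjusted p = 7.09e-07). Psmd11 (Rpn6) links lid and core. Psmd11 was at 52.6 and 58.4 CPM at 0 h, 55.1 and 57.6 at 6 h, 27.7 and 34.7 at day 3, 37.9 and 42.1 at day 5, 45.3 and 43.1 at day 7 and 52.8 and 50.8 at day 10. At day 10 its libraries were close to those of 0 h and overlapped them. By day 3, Psmd11 had fallen by 0.83 on the log2 scale (SE 0.1, edgeR adjusted p = 2.21e-06). Psmd11 rose by 0.36 on the log2 scale from day 3 to day 5 (SE 0.11, edgeR adjusted p = 0.00672). That rise was lost without day 3 replicate 1 (adjusted p = 0.112) or day 5 replicate 2 (adjusted p = 0.0650). Psmd11 was not called at day 10 against 0 h, with a log2 change of -0.10 (SE 0.1, edgeR adjusted p = 0.363). Psmd11 has 2 near copies in GENCODE at 97.9% and 98.0% identity.

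Psmd13 (Rpn9) had the largest fall of the lid at day 3. The CPM of Psmd13 was 142 and 139 at 0 h, 141 and 133 at 6 h, 65.8 and 59.9 at day 3, 106 and 92.1 at day 5, 104 and 101 at day 7 and 109.8 and 112 at day 10. Psmd13 changed by -1.16 on the log2 scale to day 3 (SE 0.078, edgeR adjusted p = 1.12e-09). Its promoter is among those with the ETS motif. Psmd7 (Rpn8), the partner of Psmd14, was the only lid gene called between day 7 and day 10. For Psmd7 the libraries gave 156 and 152 CPM at 0 h, 154 and 151 at 6 h, 76.7 and 79.2 at day 3, 99.4 and 104 at day 5, 100.04 and 103 at day 7 and 84.4 and 89.6 at day 10. Psmd7 fell by 0.22 on the log2 scale from day 7 to day 10 (SE 0.067, edgeR adjusted p = 0.0184). The call was lost without day 7 replicate 2 (adjusted p = 0.122), without day 10 replicate 1 (0.147) and with DESeq2 (0.0576). Psmd3 was lower by 0.90 at day 10 on the log2 scale, Psmd12 by 0.70, Psmd6 by 0.32 and Psmd8 by 0.20. The call for Psmd8 was lost without either 0 h library or day 10 replicate 2 (adjusted p from 0.0609 to 0.148).

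**Figure D4:**
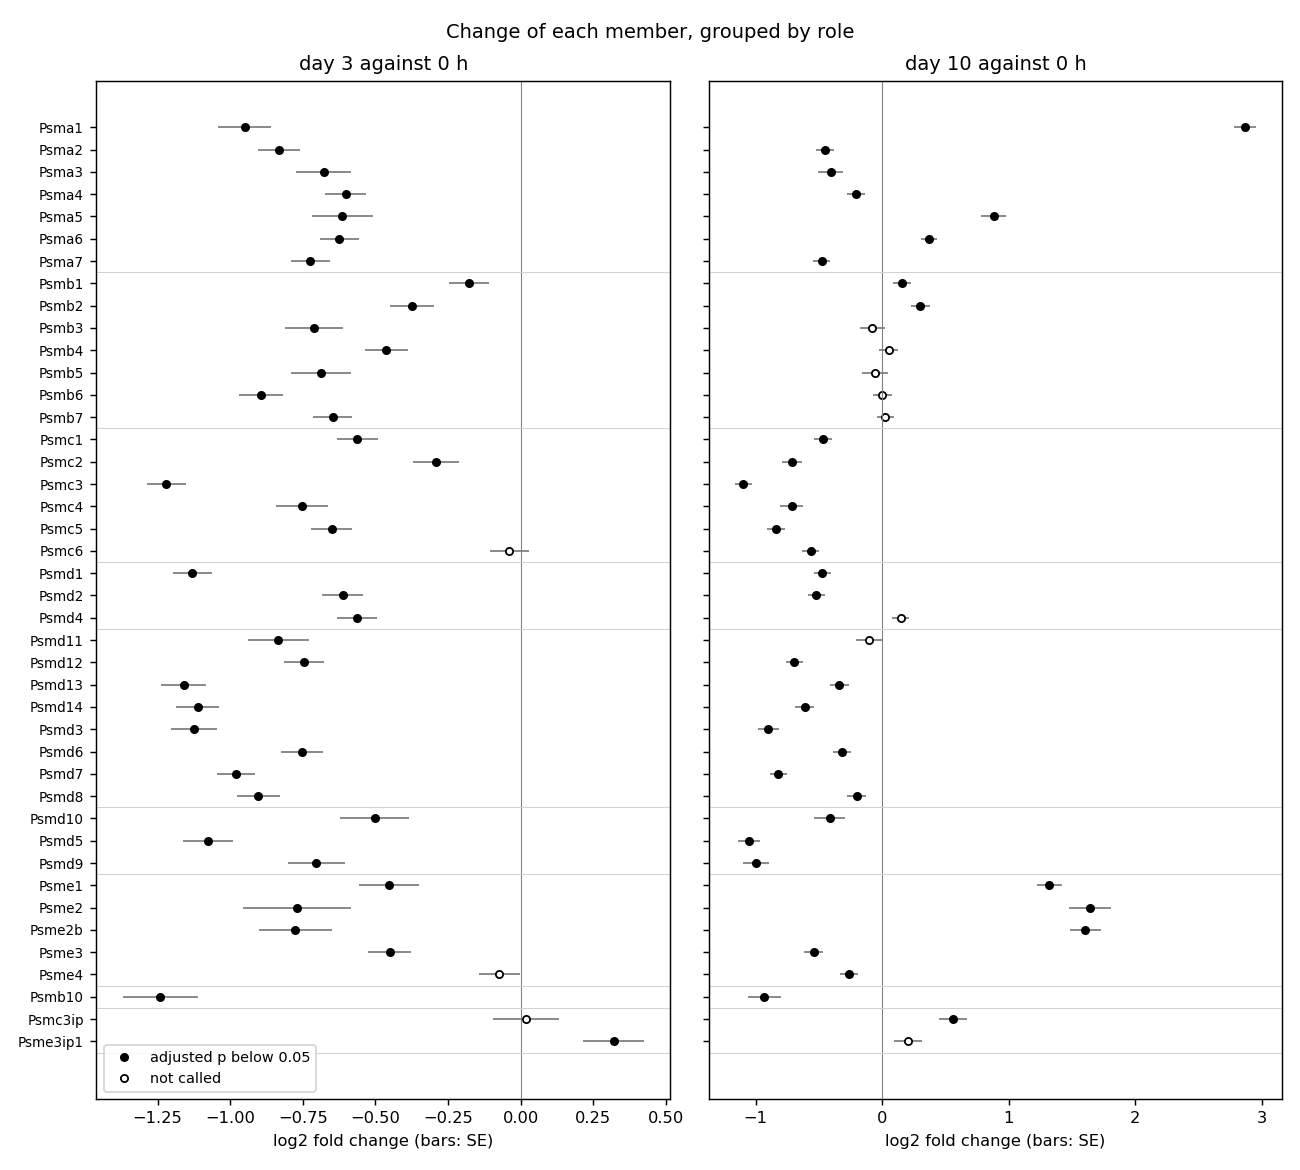
Log2 fold change of each member at day 3 (left) and at day 10 (right) against 0 h, ordered by role, with bars of 1 SE; filled points have an adjusted p below 0.05. At day 3 nearly all points lie left of 0. At day 10 the base and lid genes other than Psmd4 stay left, while Psma1, Psme1, Psme2 and Psme2b lie furthest to the right.

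The base is put together by chaperones that hold ATPases and leave the finished particle, among them Psmd5, Psmd9 and Psmd10 (gankyrin). All 3 fell to day 3, none rose from day 3 to day 5, and all 3 were lower at day 10 (median -0.998). Psmd5 stood at 188 and 174 CPM at 0 h, 182 and 169 at 6 h, 89.9 and 81.6 at day 3, 72.3 and 59.9 at day 5, 67.6 and 70.1 at day 7 and 86.2 and 87.9 at day 10. From day 3 on, every library was at 89.9 CPM or less, against 168.8 or more before. Psmd5 fell by 1.08 on the log2 scale to day 3 (SE 0.085, edgeR adjusted p = 8.9e-09). Psmd5 changed by -0.38 on the log2 scale from day 3 to day 5 (SE 0.088, edgeR adjusted p = 0.00128). Psmd5 rose by 0.34 on the log2 scale from day 7 to day 10 (SE 0.089, edgeR adjusted p = 0.00888). This rise was lost without day 7 replicate 1 or day 10 replicate 2 (adjusted p = 0.0626 and 0.0608) and with library totals only (0.0752). Psmd5 ended lower than it began, at a log2 fold change of -1.05 (SE 0.086, edgeR adjusted p = 5.2e-09). Psmd9 measured 47.4 and 44.9 CPM at 0 h, 41.8 and 40.2 at 6 h, 27.5 and 29.1 at day 3, 33.9 and 28.2 at day 5, 24.6 and 24.9 at day 7 and 23.02 and 23.1 at day 10. Its lowest libraries were those of day 7 and day 10. By day 3, Psmd9 had fallen by 0.70 on the log2 scale (SE 0.098, edgeR adjusted p = 7.38e-06). By day 7, Psmd9 had fallen by 0.33 on the log2 scale from day 5 (SE 0.1, edgeR adjusted p = 0.0171). This later fall was lost without day 5 replicate 1 (-0.17, adjusted p = 0.234), without either day 7 library (0.0892 and 0.0636) and with DESeq2 (0.0667). Psmd9 was lower at day 10 than at 0 h, with a log2 fold change of -0.998 (SE 0.1, edgeR adjusted p = 9.07e-08). Levels of Psmd10 were 31.4 and 28.3 CPM at 0 h, 31.3 and 31.8 at 6 h, 23.4 and 18.6 at day 3, 21.6 and 19.9 at day 5, 20.2 and 21.2 at day 7 and 20.5 and 24.05 at day 10. Psmd10 changed by -0.50 on the log2 scale to day 3 (SE 0.12, edgeR adjusted p = 0.00139). At day 10, Psmd10 had a log2 fold change of -0.41 against 0 h (SE 0.12, edgeR adjusted p = 0.00494). The day 10 call of Psmd10 was lost without day 10 replicate 1 (-0.31, adjusted p = 0.0686).

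Among the 5 activator genes, the PA28 alpha and beta genes (Psme1, Psme2 and Psme2b) fell to day 3, rose to day 5 and were higher at day 10 than at 0 h, whereas Psme3 and Psme4 were lower at day 10. PA28 alpha, from Psme1, and PA28 beta, from Psme2, form 1 cap. The Psme1 values were 72.04 and 72.5 CPM at 0 h, 66.2 and 73.6 at 6 h, 60.1 and 45.5 at day 3, 195 and 179 at day 5, 158 and 164 at day 7 and 183 and 179 at day 10. All libraries from day 5 on were at 158 CPM or more, and all earlier ones at 73.6 or less. Psme1 fell by 0.45 on the log2 scale to day 3 (SE 0.1, edgeR adjusted p = 0.0011). By day 5, Psme1 had risen by 1.82 on the log2 scale from day 3 (SE 0.1, edgeR adjusted p = 2.28e-10). Psme1 did not pass the test from day 7 to day 10, where its log2 change was 0.16 (SE 0.097, edgeR adjusted p = 0.228). Psme1 ended higher than it began, at a log2 fold change of 1.32 (SE 0.099, edgeR adjusted p = 3.74e-09). Per kilobase, Psme1 was set against the median of the 13 alpha and beta ring genes without Psma1. Psme1 was at 0.490 and 0.508 of that median at 0 h, and at 1.44 and 1.38 of it at day 10. The promoter of Psme1, printed above, was the only activator promoter with the GAAANNGAA match.

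Psme2 and Psme2b cannot be cleanly separated. Their transcripts are 99.4% identical over 794 bases, and it is not stated how the authors' counting treated reads that match both. The ratio of Psme2b to Psme2 counts was between 2.77 and 3.33 in all 12 libraries. Their CPM summed to 113 and 145 at 0 h, 84.5 and 66.7 at day 3, 271 and 243 at day 5, and 375 and 417 at day 10. The sum was 3.40 times higher at day 5 than at day 3, and 3.07 times higher at day 10 than at 0 h. In CPM, Psme2 was at 28.1 and 36.2 at 0 h, 27.98 and 33.1 at 6 h, 22.4 and 15.4 at day 3, 69.8 and 60.9 at day 5, 71.8 and 80.7 at day 7 and 92.6 and 109 at day 10. By day 3, Psme2 had fallen by 0.77 on the log2 scale (SE 0.18, edgeR adjusted p = 0.00305). Psme2 changed by 1.79 on the log2 scale from day 3 to day 5 (SE 0.18, edgeR adjusted p = 3.59e-06). Psme2 was higher at day 10 than at 0 h, with a log2 fold change of 1.64 (SE 0.17, edgeR adjusted p = 2.46e-06). Psme2b was at 84.6 and 109 CPM at 0 h, 91.3 and 106 at 6 h, 62.05 and 51.3 at day 3, 201 and 182 at day 5, 218 and 232 at day 7 and 282 and 308 at day 10. Psme2b rose by 1.76 on the log2 scale from day 3 to day 5 (SE 0.12, edgeR adjusted p = 5.17e-08). By day 10, Psme2b had risen by 0.39 on the log2 scale from day 7 (SE 0.12, edgeR adjusted p = 0.0258). That call was lost without any 1 of the 4 libraries of day 7 and day 10 (adjusted p from 0.0581 to 0.171) and with library totals only (0.111). At day 10, Psme2b had a log2 fold change of 1.61 against 0 h (SE 0.12, edgeR adjusted p = 4e-08). From day 7 to day 10 Psme2 had a change of 0.40 (SE 0.16, adjusted p = 0.0859), close in size to that of Psme2b, and in the other comparisons the 2 genes were called alike.

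Psme3 encodes PA28 gamma, a nuclear activator that works without ubiquitin. The CPM of Psme3 was 114 and 103 at 0 h, 109.6 and 107 at 6 h, 76.1 and 82.9 at day 3, 69.9 and 69.3 at day 5, 78.4 and 74.7 at day 7 and 75.6 and 73.5 at day 10. Its libraries from day 3 on lay below those of 0 h. Psme3 changed by -0.45 on the log2 scale to day 3 (SE 0.074, edgeR adjusted p = 4.35e-05). Psme3 ended lower than it began, at a log2 fold change of -0.54 (SE 0.075, edgeR adjusted p = 3.87e-06). The further fall to day 5 (-0.19, adjusted p = 0.0335) was lost without day 3 replicate 2 or either day 5 library (adjusted p from 0.0564 to 0.219). Psme4 encodes PA200, a large nuclear activator. For Psme4 the libraries gave 247 and 254 CPM at 0 h, 253 and 253 at 6 h, 249.5 and 226 at day 3, 271 and 289 at day 5, 245 and 235 at day 7 and 204 and 213 at day 10. The day 3 pair overlapped 0 h, day 5 was highest and day 10 lowest. Psme4 was not called at day 3 against 0 h, with a log2 change of -0.07 (SE 0.07, edgeR adjusted p = 0.364). By day 5, Psme4 had risen by 0.23 on the log2 scale from day 3 (SE 0.069, edgeR adjusted p = 0.00719). Psme4 was lower at day 10 than at 0 h, with a log2 fold change of -0.26 (SE 0.07, edgeR adjusted p = 0.00236). The rise to day 5 was lost without day 3 replicate 2 or day 5 replicate 2 (adjusted p = 0.0741 and 0.0545) and with library totals only (0.231). Psme3 per kilobase was at 0.591 and 0.531 of Psme1 at 0 h and at 0.154 and 0.154 at day 10.

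**Figure D5:**
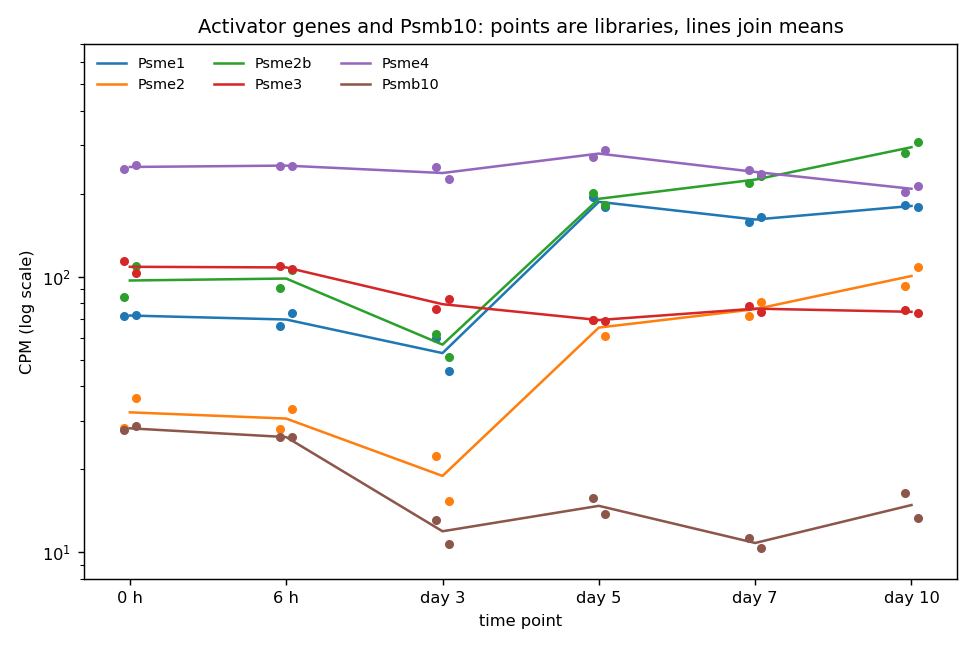
CPM (log axis) of the 5 activator genes and of Psmb10 at the 6 time points, with points for single libraries and lines joining means. Psme1, Psme2 and Psme2b step up between day 3 and day 5, whereas Psmb10 stays below its 0 h level.

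Between the later times fewer members were called than from day 3 to day 5, and the same was so for all genes tested. At day 7 against day 5, 3 members rose (Psma1, Psma6 and Psmb7) and 3 fell (Psmb10, Psmd9 and Psme4), against 19% and 18.8% of all genes. Scaled by library totals only, the split was 1 higher and 14 lower, and with upper-quartile factors 1 and 6. Without day 5 replicate 1 the counts were 6 higher and 1 lower, and without day 5 replicate 2 they were 1 and 2. Without day 7 replicate 1 they were 1 and 1, and without day 7 replicate 2 1 and 0. At day 10 against day 7, after BMP2 was withdrawn, 8 members rose and 2 fell, against 15.1% and 13.2%. The 8 were Psma1, Psma5, Psma6, Psma7, Psmb7, Psmb10, Psmd5 and Psme2b, and the 2 were Psmd7 and Psme4. Library totals gave 2 higher and 5 lower there, and DESeq2 called 6 higher and none lower. The counts were 3 higher and 1 lower without day 7 replicate 1, 2 and 0 without day 7 replicate 2, 4 and 0 without day 10 replicate 1, and 2 and 1 without day 10 replicate 2. Without any 1 of the 0 h or 6 h libraries 1 member was lower. Psme4 fell by 0.22 from day 5 to day 7 (adjusted p = 0.0188), a call lost without day 5 replicate 2 or either day 7 library (adjusted p from 0.053 to 0.1248). Its fall by 0.20 from day 7 to day 10 (adjusted p = 0.0393) was lost without any 1 of the libraries of 0 h, 6 h, day 7 or day 10 (adjusted p from 0.0555 to 0.215) and with DESeq2 (0.0646). Of the later calls, those of Psma1 alone held at both steps in all 20 alternatives; each other call was lost or reversed in at least 1, that of Psma7 from day 7 to day 10 in 12 and that of Psmb7 from day 5 to day 7 in 12.

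The balance between parts of the particle shifted in these transcripts. The core was taken here as the 13 alpha and beta ring genes without Psma1. Per kilobase, the median of the 6 base ATPases was at 0.736 and 0.704 of the core median at 0 h. The ratio was 0.741 and 0.824 at day 3, and 0.526 and 0.508 at day 10. The median of the 8 lid genes was at 0.667 and 0.663 of the core at 0 h, 0.593 and 0.600 at day 3, and 0.515 and 0.501 at day 10. Both ratios were lower in both day 10 libraries than in any library of 0 h or 6 h. A ratio within a library does not depend on its scaling. The ratios rest on gene lengths given by the authors.

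The 2 genes that match the naming pattern without belonging to the particle behaved differently. Psmc3ip encodes HOP2, a factor of meiotic recombination. Psmc3ip stood at 17.62 and 16.5 CPM at 0 h, 16.7 and 16.3 at 6 h, 17.02 and 17.5 at day 3, 27.5 and 25.95 at day 5, 26.7 and 31.5 at day 7 and 24.2 and 25.96 at day 10. It did not fall at day 3 and was higher from day 5 on. Psmc3ip did not pass the test at day 3 against 0 h, where its log2 change was 0.02 (SE 0.11, edgeR adjusted p = 0.905). Psmc3ip changed by 0.63 on the log2 scale from day 3 to day 5 (SE 0.11, edgeR adjusted p = 7.77e-05). Psmc3ip ended higher than it began, at a log2 fold change of 0.56 (SE 0.11, edgeR adjusted p = 0.000211). With library totals only the day 10 call was lost (0.20, adjusted p = 0.122). Psme3ip1 encodes a protein that binds PA28 gamma. Psme3ip1 measured 34.7 and 35.1 CPM at 0 h, 34.9 and 29.1 at 6 h, 44.5 and 42.7 at day 3, 38.6 and 41.9 at day 5, 40.3 and 44.8 at day 7 and 43.2 and 37.4 at day 10. Psme3ip1 rose by 0.32 on the log2 scale to day 3 (SE 0.11, edgeR adjusted p = 0.0128). It was the 1 member that rose at day 3, and the call was lost without either 0 h library or day 3 replicate 1 (adjusted p from 0.0516 to 0.0594).

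Other genes of proteasome assembly, regulation and substrate delivery were read from a list of 38, of which 37 were tested and Paaf1 was not analysed here. At day 3 against 0 h, 8 of 37 rose and 16 fell, with a median of -0.14. From day 3 to day 5, 15 rose and 10 fell, and at day 10 against 0 h 12 were higher and 17 lower (median -0.16). These counts stand beside 33.1% and 35% of all genes at day 3, 34% and 31% at day 5, and 42.8% and 39.9% at day 10. Among assembly factors of the core, Pomp, Psmg1, Psmg3 and Psmg4 fell at day 3, whereas Psmg2 had a change of -0.08 (adjusted p = 0.491) and fell from day 3 to day 5 by 0.68. Levels of Pomp were 132 and 133 CPM at 0 h, 124 and 134 at 6 h, 82.1 and 70.5 at day 3, 109.8 and 99.999 at day 5, 89.9 and 92.4 at day 7 and 116 and 121 at day 10. Pomp fell by 0.79 on the log2 scale to day 3 (SE 0.08, edgeR adjusted p = 1.66e-07). Pomp rose by 0.46 on the log2 scale from day 3 to day 5 (SE 0.08, edgeR adjusted p = 8.73e-05). Pomp, which matures the core, was not called at day 10 against 0 h. Psmg1 and Psmg3, chaperones of the alpha ring, fell by 0.68 and by 0.71 to day 3 on the log2 scale, and by 0.39 and by 1.32 to day 10. Psmf1, an inhibitor of the core, was not called in any of these comparisons.

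Of the cap's partners, the deubiquitinases Usp14 and Uchl5 fell at day 3 and stayed low. The Usp14 values were 255 and 232 CPM at 0 h, 248 and 246 at 6 h, 126 and 125 at day 3, 121 and 132 at day 5, 132 and 126 at day 7 and 125 and 132 at day 10. By day 3, Usp14 had fallen by 0.95 on the log2 scale (SE 0.071, edgeR adjusted p = 3.94e-09). At day 10, Usp14 had a log2 fold change of -0.92 against 0 h (SE 0.071, edgeR adjusted p = 2.51e-09). Uchl5 changed by -1.74 at day 3 and -1.41 at day 10 against 0 h (both called). Its docking partner Adrm1, a ubiquitin receptor, fell by 0.97 on the log2 scale to day 3 and rose by 0.60 to day 5. In CPM, Vcp was at 175 and 172 at 0 h, 174 and 163 at 6 h, 83.9 and 84.6 at day 3, 171 and 158 at day 5, 177 and 166 at day 7 and 158 and 161 at day 10. Vcp changed by -1.04 on the log2 scale to day 3 (SE 0.069, edgeR adjusted p = 8.77e-10). By day 5, Vcp had risen by 0.97 on the log2 scale from day 3 (SE 0.069, edgeR adjusted p = 2.41e-09). Vcp pulls ubiquitinated proteins out of complexes, and its day 5 libraries lay just below those of 0 h.

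Of the 6 listed transcription factors of subunit genes and their activators, 3 rose and 1 fell at day 3. Nfe2l1 was at 154 and 162 CPM at 0 h, 153 and 162 at 6 h, 506 and 526 at day 3, 713 and 687 at day 5, 983 and 936 at day 7 and 905 and 839 at day 10. Every library from day 3 on was at 506 CPM or more, and those of 0 h and 6 h at 162 or less. By day 3, Nfe2l1 had risen by 1.71 on the log2 scale (SE 0.073, edgeR adjusted p = 3.62e-12). Nfe2l1 changed by 0.44 on the log2 scale from day 3 to day 5 (SE 0.072, edgeR adjusted p = 4.44e-05). Nfe2l1 was higher at day 10 than at 0 h, with a log2 fold change of 2.46 (SE 0.072, edgeR adjusted p = 1.12e-14). Ngly1, the enzyme that activates Nfe2l1 by removing sugars, was higher by 0.43 at day 3 and by 2.12 at day 10 on the log2 scale. Nfe2l2, the related factor of oxidative stress, rose at day 3 (0.69) and was below 0 h at day 10 (-0.23). Zfand5, which stimulates the proteasome, was higher by 1.14 at day 3 and 1.41 at day 10. Ubb, a ubiquitin gene, was higher by 0.40 at day 3 and 1.04 at day 10. Ubb encodes repeats of 1 protein, and reads from such repeats can be hard to place.

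Interferon-related genes were set beside PA28 and Psmb10, since interferon induces these members. The list of 15 had 14 genes tested. At day 5 against day 3, when Psme1 rose by 1.82, 6 of 14 rose and 4 fell, with a median of -0.06, where 34% and 31% of all genes did so. At day 10 against day 7, 13 of 14 rose with a median of 1.60, where 15.1% of all genes rose. In that comparison the change of Psme1 was 0.16 (adjusted p = 0.228) and that of Psmb10 0.45, with the losses given above. Psme2b was called higher there and Psme2 was not, with the values and losses given above. At day 3 against 0 h, 9 of 14 rose and 2 fell (median 1.29), where 33.1% and 35% of all genes did so. Psme1, Psme2, Psme2b and Psmb10 all fell at that step. At day 10 against 0 h, 13 of 14 were higher (median 4.15), where 42.8% of all genes were. Psme1, Psme2 and Psme2b were then higher and Psmb10 lower. The summed level of the list was 508 to 528 CPM at 0 h, 717 to 730.3 at day 5, 746 to 781 at day 7 and 1824 to 2001 at day 10. The CPM of Irf1 was 71.5 and 75.9 at 0 h, 63.2 and 71.4 at 6 h, 53.9 and 39.9 at day 3, 43.4 and 38.6 at day 5, 30.4 and 29.1 at day 7 and 64.8 and 60.5 at day 10. Irf1, which can induce immunoproteasome genes, was below its 0 h libraries at every time from day 3 on. Several listed genes were at or near 0 counts at 0 h and passed the filter through later times, so their rise was partly built in.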

How the data were processed

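Poly-A+ RNA of MTΔECad cells was sequenced in 12 libraries, 2 at each of 6 time points. The authors deposited whole-number counts per gene with a gene length for each. The submitters' processing notes name STAR and the build mm10. No version, counting tool, strand setting, treatment of multi-mapped reads or annotation is given in the sources used here. Of 17090 Entrez identifiers, 17045 were matched to symbols by RefSeq (GRCm38.p6), 4 by GENCODE and 41 not.

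These counts were tested in R 4.3.3 by edgeR 4.0.16: TMM factors, filterByExpr (minimum count 10.0), 12740 genes tested, 1 mean per time point over 12 libraries (6 residual degrees of freedom), robust quasi-likelihood F test, Benjamini-Hochberg adjustment over all tested genes. Calls need an adjusted p below 0.05. P-values measure the spread between 2 independent experiments, pooled over 6 times. CPM uses TMM-scaled totals, and CPM per kilobase the deposited length. The common biological coefficient of variation was 0.0737, and the SE of each gene also takes in its own spread. Chi-square per degree of freedom within pairs (4.37 to 16.4) showed no duplicated library. The fit was tested on simulated data. All 42 members passed the filter.

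The members and lists were chosen with earlier results of these data known. Full values are given for 19 fixed members and, per comparison, the 3 largest called rises and falls, and other members are named with their role. Replicate numbers were not taken as pairs. Alternatives were other scaling factors, other filters, a replicate block, DESeq2 1.42.0, fitting the 4 libraries compared alone, and leaving out each library. The labels name no sequencing batch. Values of some listed genes are not reported here.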

Additional observations from a re-analysis of the deposited data

How the results depend on the processing

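Of 120 calls of single members over the comparisons, 91 kept their direction and stayed called in all 20 alternatives, and 3 reversed, each when libraries were scaled by their totals only: Psmb7 at day 7 against day 5 (-0.0168), Psmb1 at day 10 against 0 h (-0.199) and Psmb2 in the same comparison (-0.0524). That scaling lowers the median of all genes by 0.13 on the log2 scale from day 3 to day 5, by 0.20 from day 5 to day 7, by 0.12 from day 7 to day 10 and by 0.35 at day 10 against 0 h, while the members' median less that of all genes stayed at -0.38 in the last. With it, 8 members were lower at day 5 against day 3; 1 was higher and 14 lower at day 7 against day 5; 2 were higher and 5 lower at day 10 against day 7; and 5 were higher at day 10 against 0 h. Upper-quartile factors gave 1 higher and 6 lower at day 7 against day 5. With no filter 5 were higher there, and 1 was lower at day 10 against day 7, where DESeq2 called 0 lower. Leaving out single libraries gave 0 to 1 members higher at day 3 against 0 h, 1 to 6 higher and 0 to 4 lower at day 7 against day 5, and 2 to 9 higher and 0 to 2 lower at day 10 against day 7. A lone library left in a group is assumed to vary like the other groups. Other counts stayed within 1.5 times of those reported, and the cause of the changes was not tested.

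Samples with the same replicate number did not deviate together: correlations of the replicate differences between time points ran from -0.0913 to 0.193. A replicate block gave 1 member higher and 38 lower at day 3 against 0 h, 29 and 4 at day 5 against day 3, and 10 and 25 at day 10 against 0 h, and it kept all 120 calls. With 2 libraries per time point, the largest SE values given for members were those of Psme2 and Psmb10.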
